A study of Homo sapiens with 14 samples.

Results

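The messenger RNAs described here encode proteins of the nucleolus that build ribosomes. They were chosen by gene name from a list of 34 genes, and a transcript belonged to a gene when its Ensembl identifier carried that gene's name in GENCODE release 44. For 32 of the 34 genes the structure-probing profiles held a protein-coding transcript that could be aligned to its annotation, out of 3906 coding genes for which this was so. PES1 and NOP2, both needed to make the large ribosomal subunit, had no row in any profile, where rows begin at an RPKM of about 5. For each gene the coding transcript with the highest mean RPKM over the 4 profiles was used. The 32 genes had 164 rows of all transcript types, and rows of the same gene share exons and therefore reads.

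All values are from K562, a human chronic myelogenous leukaemia cell line. In icSHAPE, NAI-N3 at 100 mM for 5 min acylated the 2'-hydroxyl of flexible nucleotides. In icLASER, NAz-N3, added from a 1 M stock and activated by 10 min of UV light, marked solvent-exposed purine bases. In vivo denotes living cells treated with the reagent, and in vitro denotes K562 RNA that was isolated, refolded and then treated. The 14 libraries were 3 icSHAPE in vivo, 2 icSHAPE in vitro, 3 DMSO controls for icSHAPE, 2 icLASER in vivo, 2 icLASER in vitro and 2 controls for icLASER that received no UV. The authors pooled the libraries of a condition, which gave 4 profiles, and those of the same reagent share their control libraries. All RNA was enriched for poly(A) tails. The profiles carry neither replicate values nor read numbers. The depth at each nucleotide is therefore unknown, no difference given here has an experimental error, and no test could be made.

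Ribosome assembly begins in the nucleolus, where RNA polymerase I makes the ribosomal RNA precursor. Small nucleolar RNAs (snoRNAs) pair with the precursor. Those of the box C/D class guide methylation and those of the box H/ACA class guide pseudouridylation, each with its own set of core proteins. Many snoRNAs are cut from the introns of genes for ribosomal or nucleolar proteins, so a single gene can supply both a protein and a guide RNA of the same pathway.

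K562 identity was checked on lists of marker genes. Of 15 erythroid and K562 genes, 14 had a row, TAL1 being absent, and HBG1, a fetal globin, reached an RPKM of 2652 in the icSHAPE in vivo profile. Of 8 markers of other cell types, 1 had a row (LYZ, lysozyme, at an RPKM of 10.6 to 31.4). In every profile, 100% of rows with at least 100 scores ran from exactly 0 to exactly 1. A score therefore ranks nucleotides within 1 transcript, and equal scores in different transcripts or profiles need not mean equal reactivity. The range fixes the extremes of a row and not its mean, so all regions of a transcript can be higher or lower together.

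The level of these messengers spanned a wide range. By mean RPKM, which corrects the read number for transcript length and library size, 20 of the 32 members lay at or above the middle of all coding genes, with a median percentile of 60.5. NPM1 (nucleophosmin, a histone and ribosome chaperone, chr5:171387829-171410884 on GRCh38) was the highest, with RPKMs of 233 in icSHAPE in vivo, 255.9 in icSHAPE in vitro, 179 in icLASER in vivo and 171 in icLASER in vitro. NPM1 has many processed pseudogenes, and how reads shared with them were counted is not given in the sources used here, so its level is uncertain. NOP10, a small core protein of box H/ACA particles, followed with 219, 203, 194 and 157 in the same order. NCL (nucleolin, which binds the ribosomal RNA precursor) had 56.3, 74.6, 63.1 and 115, the widest gap between icLASER conditions among these 5. FBL (fibrillarin, the methyltransferase of box C/D particles) had 45.8, 37.2, 72.4 and 52.9. NOP58, a core protein of the same particles, had 33.98, 47.8, 53.6 and 57.0.

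The remaining members lay lower. The transcripts of 21 members were present in all 4 profiles. RRP1, NIP7 and NOP14 were found in both icLASER profiles but in neither icSHAPE profile, and PPAN was found in icLASER in vitro alone, at an RPKM of 7.29. Absent from icSHAPE in vitro alone were NOP56 and RRP9 of the box C/D class, WDR12 and NOP16 of the large subunit, UTP4 and EMG1 of the small subunit, and POLR1C, a subunit shared by RNA polymerases I and III. Since rows start at a fixed RPKM, a missing row does not show that a transcript was absent. In bulk RNA, fewer cells with a transcript and less of it per cell cannot be told apart.

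Most of these messengers had a lower RPKM in vivo than in vitro with icLASER. The log2 ratio of in vivo over in vitro RPKM had a median of -0.22 over 31 members, against 0.06 over 2899 other coding genes. Of the 31, 24 were lower in vivo, as were 1210 of the 2899 others. At least 1.5-fold lower in vivo were 5 of the 31 members, NOP16, NOLC1, NCL, WDR43 and DKC1, where 3.34% of all 2930 coding genes passed that limit. NOP16, a large subunit assembly protein, had 12.9 in vitro and 6.89 in vivo. NOLC1, a nucleolar protein that binds snoRNPs, had 13.7 and 7.32. WDR43, a small subunit processome protein, had 19.9 and 11.5. FBL stood at the other end, with 52.9 in vitro and 72.4 in vivo. With icSHAPE no such shift was seen, the median being 0.04 over 21 members, 10 lower and 11 higher. Over 2384 other coding genes it was 0.10, with 784 lower. Among the 11 members with a mean RPKM of at least 20, the icLASER median was 0.07, so the direction of the median did not hold among the more abundant messengers, although NCL was 1 of them.

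The icSHAPE scores of these messengers were higher in vivo than in vitro in all 3 regions of the mRNA, most of all in the 5' UTR. There the median difference in mean score was 0.077 over 18 members with at least 30 scored nucleotides, against 0.019 over 2014 other coding genes. Of these 18, 15 were higher in vivo, as were 1252 of the 2014 others. By at least 0.05, 11 were higher, where 29.5% of all coding genes passed that limit in this direction. In the 3' UTR all 19 measured members were higher (median 0.051 against 0.028), as were 1799 of 2207 other coding genes. Of the 19, 10 passed 0.05 against 24.9% of all coding genes. In the coding sequence all 21 were higher, as were 2065 of 2383 others, with a median of 0.043 against 0.034. Of the 21, 7 passed 0.05 against 29.5%, a share close to that of all genes.

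Part of the icSHAPE difference belongs to the whole profile. The mean score over all coding transcripts was 0.178 in icSHAPE in vivo and 0.150 in vitro, and 0.164 and 0.161 in icLASER. With each profile scaled by its own mean, the members' median became 0.046 in the 5' UTR (14 of 18 higher), 0.011 in the coding sequence (14 of 21 higher) and 0.030 in the 3' UTR (18 of 19 higher). Other coding genes then had medians of -0.0119, 0.00305 and 0.00683. After this scaling 9 of 18 members passed 0.05 in the 5' UTR (15.1% of all coding genes), 1 of 21 in the coding sequence (8.40%) and 4 of 19 in the 3' UTR (12.4%). In the 5' UTR 3 of the 18 were lower by at least 0.05, as were 28.7% of all coding genes. With each gene summarised by its median nucleotide in place of its mean, the members' icSHAPE difference in the 5' UTR was 0.00475, so it lay in the more reactive nucleotides rather than in the typical one.

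NCL had the largest icSHAPE difference in the 5' UTR, with mean scores of 0.296 in vivo and 0.103 in vitro over 216 nucleotides. RRS1 (large subunit assembly) had 0.325 and 0.143, and GNL2, a nucleolar GTPase of the same pathway, had 0.308 and 0.147. At the other end, NOP10 had 0.194 in vivo and 0.274 in vitro, WDR43 0.229 and 0.263, and NHP2 0.201 and 0.227. The only members that were lower in vivo were thus a small subunit factor and 2 of the 4 box H/ACA core proteins.

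In the coding sequence the highest icSHAPE differences belonged to GNL3 (nucleostemin, a nucleolar GTPase), with 0.199 in vivo and 0.104 in vitro, RRS1, with 0.170 and 0.098, and WDR43, with 0.243 and 0.173. The lowest were NOB1, the nuclease that trims the 3' end of small subunit rRNA, with 0.198 and 0.186, SNU13, with 0.171 and 0.152, and NPM1, with 0.222 and 0.204. In the 3' UTR, RRS1 (0.155 in vivo and 0.054 in vitro), DKC1 (0.152 and 0.064) and FBL (0.127 and 0.049) differed most. DDX21, an RNA helicase (0.150 and 0.133), BOP1 (0.106 and 0.087) and BRIX1 (0.082 and 0.060) differed least. DKC1 is dyskerin, the pseudouridine synthase of box H/ACA particles, and BOP1 and BRIX1 act in large subunit assembly.

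The icLASER scores were lower in vivo in the 5' UTR and higher in the 3' UTR of the same messengers. In the 5' UTR all 24 measured members were lower in vivo, as were 1897 of 2393 other coding genes. The median difference was -0.096 against -0.056 over the others. By at least 0.05, 19 of the 24 were lower, where 53.2% of all coding genes were. In the 3' UTR 28 of 29 members were higher, as were 2305 of 2695 others, with a median of 0.066 against 0.050. Of the 29, 17 passed 0.05 against 50.3%. All 23 members measured in both UTRs had the lower 5' UTR and the higher 3' UTR, as did 69.92% of 2261 other coding genes. In the coding sequence 24 of 31 were lower, as were 1759 of 2898 others, with a median of -0.023 against -0.00913. Of the 31, 4 were lower by at least 0.05 against 14.6% of all coding genes. With the median nucleotide of each gene in place of the mean, the 5' UTR median was -0.020. Scaling each profile by its own mean left the medians of the 5' UTR, the 3' UTR and the coding sequence at -0.0996, 0.064 and -0.027.

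**Figure D1:**
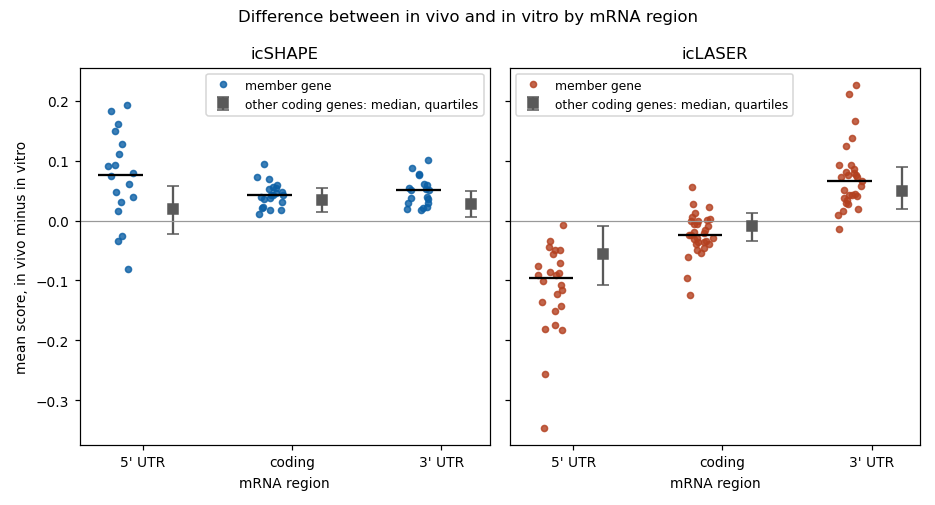
Difference in mean score between in vivo and in vitro (y axis) in 3 mRNA regions (x axis) for icSHAPE and icLASER. Points are member genes and short lines their medians, and squares with bars are the median and quartiles of the other coding genes. In the 5' UTR the members' medians were 0.077 for icSHAPE and -0.096 for icLASER.

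WDR43 had the lowest icLASER difference in the 5' UTR, with 0.244 in vivo and 0.590 in vitro, though over only 45 nucleotides. GNL2 had 0.154 and 0.410 over 93 nucleotides, and RRP1 0.105 and 0.288 over 84. The smallest differences were in NHP2 (0.179 and 0.187), NOP10 (0.216 and 0.250) and NOP16 (0.085 and 0.130). NPM1 (0.070 and 0.161), NCL (0.029 and 0.117) and FBL (0.071 and 0.194) lay between them.

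In the coding sequence NIP7, a large subunit factor, was lowest with 0.109 in vivo and 0.234 in vitro, followed by GTPBP4 (0.171 and 0.267), a nucleolar GTPase, and DDX21 (0.193 and 0.254). BRIX1 (0.163 and 0.106), SNU13 (0.183 and 0.156) and BYSL (0.147 and 0.124) were highest. BYSL, or bystin, acts late in small subunit assembly. In the 3' UTR, BOP1 (0.271 in vivo and 0.044 in vitro), UTP4 (0.267 and 0.055) and GNL3 (0.240 and 0.074) were highest, BOP1 over only 32 nucleotides. NIP7 (0.140 and 0.154) was the 1 member that was lower in vivo, and WDR12 (0.108 and 0.099) and NOLC1 (0.155 and 0.139) came next.

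The 2 reagents thus differed in the 5' UTR of the same messengers. Of 18 members with both, 15 were higher in icSHAPE and lower in icLASER in vivo, and none was higher in both. Among 1886 other coding genes 49.4% had the first pattern and 11.8% the second. In the 3' UTR all 19 members with both reagents were higher in both, as were 71.1% of 2078 other coding genes. In the coding sequence 16 of 21 members were higher in icSHAPE and lower in icLASER, against 51.1% of 2245.

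The bases of the 5' UTR did not contribute equally. Over all members, the icLASER score of G went from 0.382 in vitro to 0.217 in vivo and that of A from 0.237 to 0.127. C went from 0.121 to 0.077 and U from 0.1555 to 0.0854, so the pyrimidines were lower in vivo too. In other coding genes G went from 0.401 to 0.302 and A from 0.2375 to 0.174, while C went from 0.122 to 0.120 and U from 0.167 to 0.134. In icSHAPE the largest difference was at U, from 0.131 in vitro to 0.264 in vivo, where other coding genes had 0.225 and 0.254.

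Along the mRNA, the icLASER difference of the members went from -0.161 in the first of 5 bins of the 5' UTR to 0.124 in the last of 10 bins of the 3' UTR. The other coding genes went from -0.080 to 0.170. The icSHAPE difference was positive in nearly every bin, with a dip late in the coding sequence. In bins 18 and 19 of 20 the members averaged -0.037 and -0.061, and the other coding genes 0.029 and 0.039.

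**Figure D2:**
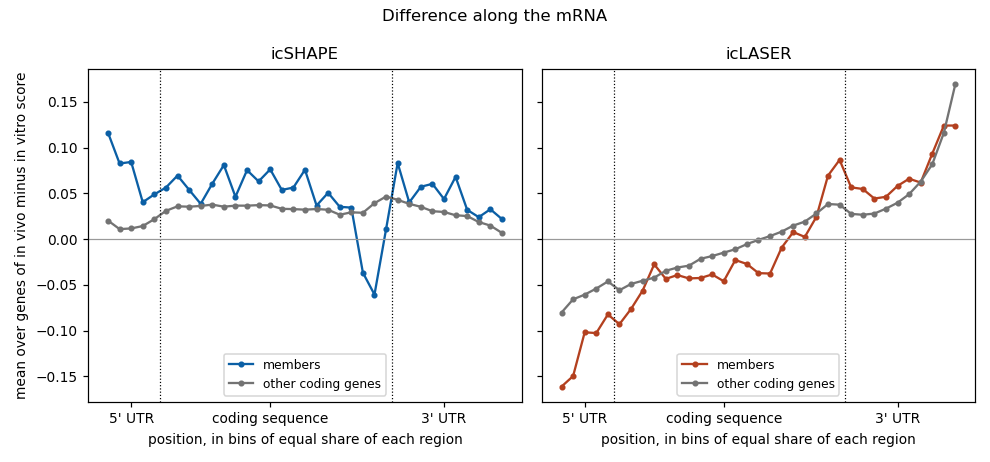
Mean over genes of the in vivo minus in vitro score (y axis) in 5 bins of the 5' UTR, 20 of the coding sequence and 10 of the 3' UTR (x axis), for the members and the other coding genes. Dotted lines mark the start and the end of the coding sequence. The members' icSHAPE line dips to -0.061 in bin 19 of the coding sequence, and the icLASER lines of both sets climb from the 5' to the 3' end.

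The icSHAPE dip was deepest in a few members. Over bins 18 and 19 together, DKC1 had a mean of 0.214 in vivo and 0.721 in vitro, WDR43 0.249 and 0.611, NOP58 0.220 and 0.515, and GNL2 0.179 and 0.403. These 4 of 21 members were lower in vivo by at least 0.2, as were 1.27% of all 2359 coding genes. This stretch and this limit were chosen after the values were seen. Lower in vivo by any amount were 8 of the 21 members (38.1%), against 25.1% of 2338 other coding genes. The members' median was 0.010 against 0.039 for the others. The typical member was thus not lower in vivo, but its difference was smaller than that of the others. In the same stretch icLASER was lower in vivo in 5 of 31 members (16.1%), against 29.0% of 2846 other coding genes. The medians were 0.032 and 0.032, so most genes of both sets were higher.

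The sequences of these stretches were rich in purines. Below are the 60 nucleotides, in frame, with the lowest mean icSHAPE difference in the coding sequence of each of 3 members, from GENCODE release 44 on GRCh38, with capitals at nucleotides whose icSHAPE score was at least 0.5 lower in vivo.
DKC1: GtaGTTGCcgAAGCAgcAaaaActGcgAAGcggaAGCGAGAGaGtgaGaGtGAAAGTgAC
NOP58: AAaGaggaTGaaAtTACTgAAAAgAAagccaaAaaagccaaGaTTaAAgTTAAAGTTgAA
WDR43: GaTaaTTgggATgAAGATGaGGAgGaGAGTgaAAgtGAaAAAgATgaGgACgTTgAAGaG

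The DKC1 stretch is at coding nucleotides 1309 to 1368 of 1545 and crosses an exon junction between positions 154775244 and 154776216 of chromosome X (plus strand). Its mean icSHAPE score was 0.196 in vivo and 0.784 in vitro, and 36 of 60 nucleotides were lower by at least 0.5. The NOP58 stretch is at coding nucleotides 1348 to 1407 of 1590 and crosses a junction between 202300313 and 202302925 of chromosome 2 (plus strand). Its mean was 0.215 in vivo and 0.734 in vitro, with 32 such nucleotides. It holds 8 lysine codons (AAA or AAG) among its 20, where the DKC1 stretch holds 3 and the WDR43 stretch 1. The WDR43 stretch is at coding nucleotides 1855 to 1914 of 2034, within 1 exon at chr2:28946600-28946659 (plus strand). It had 0.254 in vivo and 0.838 in vitro, with 38 such nucleotides, and 49 of the 60 are A or G.

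The icLASER scores of the same nucleotides did not follow. The NOP58 stretch had 0.763 in vivo and 0.672 in vitro, and the WDR43 stretch 0.853 and 0.734, so both were high in both conditions. The DKC1 stretch had 0.505 and 0.650, with 11 nucleotides lower by at least 0.5 and 4 higher.

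Purine-rich windows were more frequent in these messengers, and there the mean icSHAPE difference was negative in the members and in other coding genes alike. Of 1339 in-frame windows of 10 codons in 30 members, 5.23% were at least 80% purine, against 1.85% of 133582 windows in other coding genes, and 22 of the 30 members (73.3%) had 1 or more, against 31.9% of 3581 others. In windows under 50% purine the members' mean icSHAPE score was 0.193 in vivo and 0.109 in vitro, and in windows of at least 80% purine it was 0.224 and 0.263. The other coding genes had 0.198 and 0.144 in the first class and 0.216 and 0.251 in the second. The median difference in the second class was positive all the same, at 0.025 for the members and 0.011 for the others, so a minority of windows, 44.8% and 46.7%, were lower in vivo. The members thus had more such windows, with values close to those elsewhere. Windows of 1 transcript are not independent, and whether composition accounts for the dip was not tested.

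The 25-nucleotide windows with the lowest and the highest difference summed over both reagents show how far single stretches differed. BOP1 and RRS1, whose sequences are not reported here, were left out of this choice. Among the rest the lowest were in GTPBP4, NCL and WDR43, and capitals mark nucleotides lower in vivo by at least 0.5 in either reagent.
GTPBP4: TCTGAAAaACATgATAAGATaCCAG
NCL: aCtACACcaGCCAAAGGAAAGAAAG
WDR43: ATGAAGaagAGTctTcTgAAGaGgA

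The GTPBP4 window is at coding nucleotides 1267 to 1291 (chr10:1010443-1010467, plus strand). It had icSHAPE means of 0.224 in vivo and 0.679 in vitro and icLASER means of 0.312 and 0.973, and 22 of its 25 nucleotides are in capitals. The NCL window at coding nucleotides 637 to 661 (chr2:231460819-231460843, minus strand) had 0.177 and 0.836 in icSHAPE and 0.568 and 0.880 in icLASER. The WDR43 window at coding nucleotides 1796 to 1820, which crosses a junction, had 0.163 and 0.676, and 0.510 and 0.842.

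The highest were in GNL3, BYSL and NCL, and here capitals mark nucleotides that were higher in vivo by at least 0.5 in either reagent.
GNL3: CtAAAacagCAGcAgaAACTtGAcA
BYSL: gCCccGGCtGAGcCgacgGattTTg
NCL: GCTttGGagGgCGaggagGCTTccG

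The GNL3 window at coding nucleotides 220 to 244 (chr3:52687511-52687535, plus strand) had 0.279 in vivo and 0.040 in vitro in icSHAPE and 0.426 and 0.135 in icLASER. The BYSL window at 153 to 177 (chr6:41921715-41921739, plus strand) had 0.137 and 0.040, and 0.476 and 0.065. The NCL window at 2048 to 2072, which crosses a junction, had 0.138 and 0.180 in icSHAPE but 0.640 and 0.103 in icLASER. Its higher value in vivo was in icLASER alone. NCL held 1 of the lowest and 1 of the highest windows.

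At the start codon the members had values near those of other coding genes. The mean icLASER score of its G was 0.331 in vivo and 0.443 in vitro over 27 and 28 members, against 0.318 and 0.480 for the others, and the icSHAPE score of its A was 0.278 and 0.213 against 0.291 and 0.244. In the 30 nucleotides ahead of it the members' icLASER score was 0.153 in vivo and 0.256 in vitro, where the others had 0.215 and 0.263. At the stop codon, the icSHAPE score of the first base was 0.153 in vivo and 0.2345 in vitro, against 0.156 and 0.150 for the others. That of the second base, in the opposite direction, was 0.318 in vivo and 0.120 in vitro over 27 and 20 members, against 0.302 and 0.2002. The numbers of members differ between profiles, so these means are not over the same genes.

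Across nucleotides, the in vivo and in vitro profiles of a messenger were related to a middling degree. Pearson's r had a median of 0.412 for icSHAPE over 21 members (0.225 to 0.686) and 0.523 for icLASER over 31 (0.284 to 0.819), against 0.476 and 0.528 over the other coding genes. Between reagents the median was 0.306 in vivo over 28 members and 0.421 in vitro over 21, against 0.320 and 0.347. The nucleotides of 1 transcript share base composition, depth and controls, and these values are descriptions only.

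Of the 34 genes, 7 hold annotated snoRNAs in introns of their canonical transcript. NOP56 has SNORD110, SNORA51, SNORD86, SNORD56 and SNORD57 in introns 3, 5, 8, 9 and 10. NOP58 has SNORD70, SNORD70B, SNORD11B and SNORD11, DKC1 has SNORA36A and SNORA56, and NCL has SNORA75, SNORD20 and SNORD82. GNL3 has SNORD19, SNORD19B, SNORD19C, SNORD69 and a pair of unnamed ones, PPAN has SNORD105 and SNORD105B, and WDR43 has SNORD92, SNORD53 and SNORD53B. Of these, 7 snoRNAs lay with at least 40 scored nucleotides in a row of their host that was present in both conditions of a reagent, namely 5 in NOP56, 1 in GNL3 and 1 in DKC1.

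In those rows most snoRNAs scored lower in vivo than in vitro. SNORD110 lies at chr20:2654212-2654286 (plus strand), and the row of highest mean RPKM that holds it is a NOP56 transcript with no defined coding sequence. Capitals mark nucleotides whose score was at least 0.5 lower in vivo, first for icSHAPE and then for icLASER.
SNORD110, icSHAPE: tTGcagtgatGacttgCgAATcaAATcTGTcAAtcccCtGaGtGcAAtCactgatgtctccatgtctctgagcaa
SNORD110, icLASER: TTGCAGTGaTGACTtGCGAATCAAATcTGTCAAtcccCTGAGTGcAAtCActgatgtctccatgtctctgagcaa

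Its mean icSHAPE score was 0.00953 in vivo and 0.351 in vitro, and its mean icLASER score 0.055 and 0.571, with 22 and 41 of its 75 nucleotides lower by at least 0.5. The capitals end ahead of the 3' part of the snoRNA in both reagents. The rest of the row went the other way, from 0.109 in vitro to 0.191 in vivo in icSHAPE and from 0.095 to 0.149 in icLASER. The RPKM of the row was 42.7 in vitro and 19.4 in vivo in icSHAPE, and 26.7 and 6.33 in icLASER, so the row was less covered in vivo, and the part of this in the scores was not tested.

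**Figure D3:**
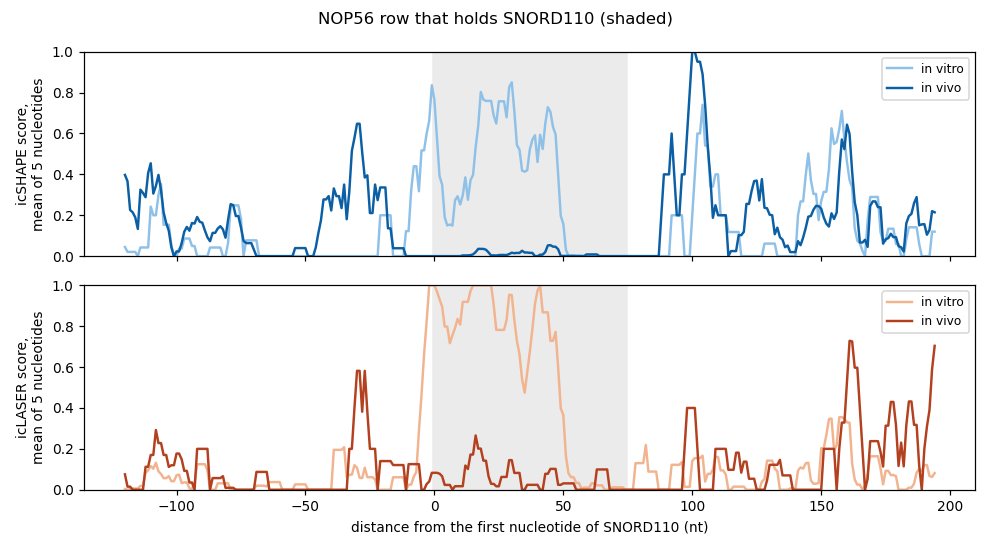
Scores (y axis, mean of 5 nucleotides) along the NOP56 transcript that holds SNORD110, by distance from the first nucleotide of the snoRNA (x axis), for icSHAPE and icLASER. Within the snoRNA (shaded) the in vitro lines are high over its first part. The icSHAPE in vivo line stays near 0 (mean 0.00953) and the icLASER in vivo line is low with a few peaks (mean 0.055, highest 0.266).

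SNORD56 and SNORD57 were lower in vivo with both reagents too. SNORD56, with 55 of its 71 nucleotides in the row, had 0.177 in vivo and 0.405 in vitro in icSHAPE and 0.061 and 0.478 in icLASER. SNORD57 had 0.038 and 0.261, and 0.063 and 0.205. SNORD19B of GNL3, at chr3:52690744-52690827 (plus strand), had an icLASER score of 0.060 in vivo and 0.590 in vitro, and 44 of its 84 nucleotides were lower by at least 0.5.
SNORD19B, icLASER: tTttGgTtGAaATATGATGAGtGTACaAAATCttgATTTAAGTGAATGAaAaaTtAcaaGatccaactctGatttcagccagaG

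SNORD86 and SNORA56 differed from these in icSHAPE. SNORD86, at chr20:2656097-2656182 (plus strand), had 0.084 in vivo and 0.081 in vitro in icSHAPE, and 0.076 and 0.260 in icLASER. Its sequence is shown because its 14 icLASER capitals were mostly G (10 of 14), spread along its length.
SNORD86, icLASER: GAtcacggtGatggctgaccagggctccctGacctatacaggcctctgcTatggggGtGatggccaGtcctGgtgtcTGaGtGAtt

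SNORA56 of DKC1 was low throughout, with 0.085 and 0.047 in icSHAPE and 0.031 and 0.105 in icLASER. SNORA51 of NOP56, the other box H/ACA snoRNA, had 0.131 and 0.503 in icSHAPE and no icLASER value.

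**Figure D4:**
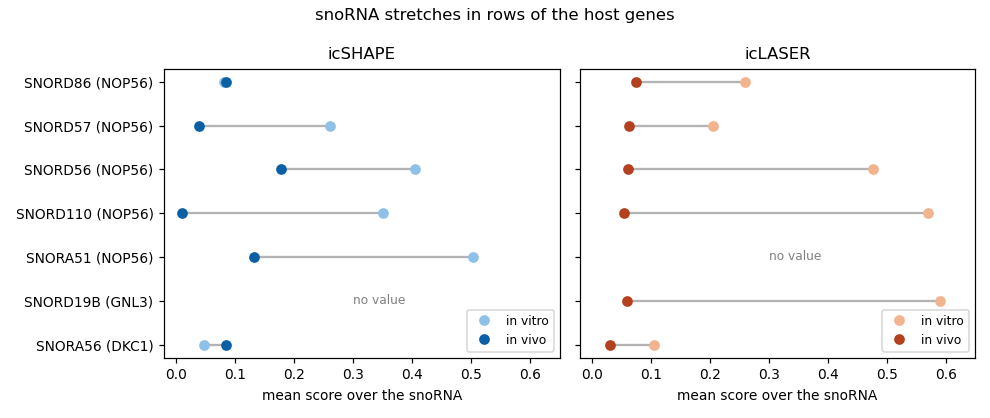
Mean score over each snoRNA (x axis), in vitro (pale points) and in vivo (dark points), for icSHAPE and icLASER. The row used is the one of highest mean RPKM among the searched host rows that hold the snoRNA. In icLASER all 6 snoRNAs are lower in vivo, and in icSHAPE 4 of 6 are, the exceptions being SNORD86 and SNORA56.

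Over the member snoRNAs the median difference was -0.225 in icSHAPE (4 of 6 lower in vivo) and -0.300 in icLASER (6 of 6 lower). The same was seen in snoRNAs within rows of other genes, where 86 of 87 were lower in icSHAPE, with a median of -0.280, and 87 of 88 in icLASER, with a median of -0.378. The pattern was therefore not particular to the nucleolar hosts. Reads of the mature snoRNA and reads of an unspliced host transcript cannot be told apart in these rows. Several rows of NOP56 overlap, and their values for the same snoRNA are not independent.

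Retained introns of the members mostly scored lower than the exons of the same row. For 16 members a retained-intron transcript had a row, and the one with the highest mean RPKM was used. The intron was lower than the exons in 10 of 11 genes in icSHAPE in vivo, 9 of 10 in icSHAPE in vitro, 11 of 12 in icLASER in vivo and 12 of 14 in icLASER in vitro. The median differences were -0.051, -0.073, -0.119 and -0.087. The NHP2 transcript was the extreme, with an intron mean of 0 in both icSHAPE profiles beside exon means of 0.187 in vivo and 0.159 in vitro. No minimum coverage was applied to the scores and the depth over introns is unknown. Low reactivity and few reads in an intron therefore cannot be told apart. Of the snoRNA hosts, NCL had intron and exon means of 0.037 and 0.181 in icLASER in vivo and 0.065 and 0.169 in vitro, in a row whose RPKM was 48.6 in vivo and 98.2 in vitro. DKC1 had 0.027 and 0.150 in vivo and 0.056 and 0.162 in vitro, and GNL3 0.106 and 0.168 in vivo and 0.145 and 0.188 in vitro. NOP56 had 0.061 and 0.176 in vivo but 0.137 and 0.153 in vitro, and outside the snoRNAs the in vitro intron mean was 0.103. PPAN had a row in icLASER in vitro alone, with 0.103 and 0.120. NOP58 had a row in icSHAPE in vitro alone, where the intron was at 0.163, or 0.061 outside its snoRNA, and the exons at 0.036. WDR43 had a row in icSHAPE in vivo alone, with 0.040 and 0.175. NPM1, whose retained-intron row was its highest of any type, had intron and exon means of 0.191 and 0.214 in icSHAPE in vivo. In icLASER in vitro it had 0.191 and 0.162, one of the few cases with the intron above the exons.

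For 11 of the 32 members the row of highest mean RPKM was not a protein-coding transcript. It was a transcript with no defined coding sequence in 8, a retained-intron transcript in 2 (NPM1 and WDR12) and a nonsense-mediated decay transcript in 1 (NOLC1). Since rows of the same gene share exons, reads cannot be assigned between such a transcript and the coding one from RPKM.

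In sequence the members had a longer coding part and a shorter 3' UTR than other coding genes. The coding sequence had a median of 1293 nt against 837, and the 3' UTR 297 nt against 538.5, with a GC content of 48.0% against 49.4% and 11 exons against 6. The 5' UTR had 110 nt against 131.5.

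Other genes of ribosome assembly gave a comparison from the same pathway. Of 95 listed, 61 had a placed coding transcript. In icSHAPE their median differences were 0.035 in the 5' UTR (18 of 25 higher, 12 by at least 0.05), 0.045 in the coding sequence (28 of 30 higher, 12 by at least 0.05) and 0.036 in the 3' UTR (24 of 28 higher, 9 by at least 0.05), beside 29.5%, 29.5% and 24.9% of all coding genes past that limit. In icLASER they were -0.079 in the 5' UTR (31 of 36 lower, 22 by at least 0.05), -0.0078 in the coding sequence (29 of 46 lower, 5 by at least 0.05) and 0.044 in the 3' UTR (36 of 40 higher, 18 by at least 0.05), beside 53.2%, 14.6% and 50.3%. In the icLASER coding sequence and 3' UTR the share of this list past the limit was thus below that of all coding genes. Their log2 RPKM ratio in icLASER had a median of -0.23, with 31 of 46 lower in vivo, as were 1210 of 2899 coding genes outside the members. At least 1.5-fold lower were 10 of the 46, beside 3.34% of all coding genes. In icSHAPE their median ratio was -0.12, with 17 of 30 lower in vivo. Coding genes outside the members had a median of 0.10, with 784 of 2384 lower. The lower icLASER RPKM in vivo was thus seen in both lists, and in the 5' UTR the wider list lay between the members and all other coding genes with either reagent.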

How the data were processed

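RNA from K562 cells was probed with NAI-N3 (icSHAPE) or NAz-N3 (icLASER), in cells or after isolation and refolding. Per the study's methods and the labels, reads were trimmed with Trimmomatic, checked with FastQC, aligned with Bowtie2 to the Ensembl release 88 transcriptome (GRCh38) and passed through the icSHAPE pipeline with default settings except -T 0 and -t 0. Poly(A) enrichment was performed 2 times. In the deposited files, column 3 is the RPKM the authors computed for each transcript, and each later column is a score for 1 nucleotide that the authors derived from treated and control libraries and scaled to run from 0 to 1. All replicates of a condition were pooled by the authors. Groups were taken from the labels. The paper shows the mapped read depth of each dataset, but depth per transcript and per nucleotide is unknown, because the values carry no read counts. No interval or detection limit was therefore given.

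Of 20512 transcripts in any profile, 20111 were found in GENCODE release 44. Lengths often differ from release 88. A protein-coding row of another length was placed by the offset, up to 600 nt, at which its scores best followed the mean score of each dinucleotide, when the first and the last part of the row gave the same offset. On 1500 rows of equal length these matched for 94%, and of these 99.93% were at the true offset. Of 4055 rows of another length 3766 were placed, including those of 24 members, the other 8 having equal length. Nucleotides ahead of the release 44 start were counted as 5' UTR. Retained introns and snoRNA stretches were read only in rows of equal length.

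Per gene and region, mean scores were taken over nucleotides scored in both profiles (at least 30), and a difference of at least 0.05 was counted. Correlations needed at least 100 nucleotides. The region code was checked on simulated scores with planted shifts. Values are given for members with the 3 highest and 3 lowest differences per reagent and region and for the 5 highest RPKMs. They are also given for snoRNA hosts with a retained-intron row and for 3 windows of each kind outside chromosome 8. Members missing from a profile were named as well, while GAR1 and EBNA1BP2 were not named elsewhere. Late coding stretches, purine-rich windows and single snoRNAs were singled out after values were seen, as were members named by sequence. Members and lists were chosen with earlier results of these data known. Python 3.11.15, NumPy, pandas and SciPy were used. Alternatives were another summary of the scores, scaling, base choice, nucleotide minimum, transcript choice, a shift of 1 nucleotide, pseudocount, RPKM minimum and limits.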

Additional observations from a re-analysis of the deposited data

How the results depend on the processing

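No paired analysis was possible because the replicates of each condition are pooled in 1 profile, and for the same reason no replicate could be left out. Of 114 alternatives to 32 results, 89 stayed within the exact binomial rank interval of the members' median or, for counts, within 1.5 times, and 25 moved beyond it. The sign changed in 4, of the icLASER whole-transcript difference, the icSHAPE RPKM ratio and the icLASER RPKM ratio. That interval covers the choice of members alone. With the median over nucleotides in place of the mean, the difference was 0.00475 (icSHAPE) and -0.020 (icLASER) in the 5' UTR, 0.063 in the icSHAPE coding sequence and 0.041 in the icLASER 3' UTR. As the share of nucleotides at 0.5 or above, it was 0.017 in the coding sequence, 0.027 in the 3' UTR and 0.022 in the whole transcript for icSHAPE, and -0.00242, 0.0386 and 0.004995 for icLASER. With profiles scaled by their own means, icSHAPE gave 0.011 in the coding sequence, 0.030 in the 3' UTR and 0.019 in the whole transcript, and 1 in place of 7 members passed 0.05 in the coding sequence. With A and G only, icLASER gave -0.043 in the coding sequence and -0.019 in the whole transcript. Over all transcripts of matching length, icSHAPE gave 0.025 in the coding sequence and 0.029 in the whole transcript (8 genes each), and icLASER -0.060 in the 5' UTR (9 genes). The icLASER log2 RPKM ratio was 0.0651 in place of -0.22 at a mean RPKM of at least 20. Limits of 0.03 and 0.1 gave 16 and 0 members in the icSHAPE coding sequence in place of 7, and 13 and 1 in icLASER in place of 5 in either direction. Spearman's rho between icLASER conditions was 0.399. The causes were not tested. Other genes within the members' RPKM range (3330) moved no comparison. Rows of equal length only, nucleotides inside release 44 only, and the mean over all rows of a snoRNA were added after seeing the data and moved no value beyond the interval.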
